A study of Betula luminifera with 4 samples.

Results

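Roots and shoots of a phosphate-starved birch were compared gene by gene. The birch was *Betula luminifera* clone G49#, a tissue-culture clone, so its plants share one genotype. The comparison used 26828 of the 76899 assembled genes in the deposited table, 34.9%. They were the genes whose best protein match was to walnut (*Juglans*, 21925 genes) or whose Swiss-Prot match was to *Arabidopsis thaliana* (15417 genes), with 10514 meeting both criteria. This rule used protein matches and not the measured values, but it was set with earlier results of these data known.

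Seedlings 2 months old were potted in sterilized sand, kept on complete medium for 2 weeks and then on deionized water for 2 weeks. Plants without phosphate (LP) then received a medium from which KH2PO4 was omitted, with K2SO4 supplying the potassium. Control plants (CK) received the medium with 1.25 mM KH2PO4. The experiment held 54 plants; how many went into a library, and for how long they were treated, is not given in the sources used here. The LP root library came from root RNA and the LP shoot library from equal amounts of stem and leaf RNA, with 1 library each. The CK root and CK shoot libraries, also 1 each, shared no library with the LP pair and are given beside it. With 1 library per group no difference had a replicate check, no test was made, and every statement below compares libraries.

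Plants take up phosphate as an ion through PHT1 importers in the outer root cells, and PHO1 exporters load it into the xylem for the shoot. When phosphate is short, plants are known to raise importers, secrete acid phosphatases and replace membrane phospholipids with galactolipids and sulfolipids, under PHR regulators that SPX proteins restrain. Leaves hold the photosynthetic machinery, and young stems hold the cambium and xylem that deposit cellulose, xylan and lignin.

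Values are TPM, transcript counts corrected for length and library total, as deposited. Plant-matched genes made up 40.5% of all TPM in LP roots and 59.7% in LP shoots, while the CK root and CK shoot libraries had 52.2% and 63.8%. Over the 15403 plant-matched genes of at least 1 TPM in both LP libraries, the median ratio of root to shoot was 0.574, a log2 shift of -0.80. The LP libraries were rescaled by that ratio, so each log2 ratio below is relative to this shift, was taken on scaled TPM + 1, and is positive where roots were higher. The CK pair was rescaled in the same way, by a median ratio of 0.922 over 13198 genes. The added 1 TPM understates differences of low genes. Calls required a larger scaled value of 1 TPM or more and a log2 ratio of 1 or more in either direction, a 2-fold difference. In these bulk tissues, fewer cells of a type and less RNA per cell cannot be told apart.

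Of the 24861 genes that reached 1 TPM, 10926 were called higher in LP shoots (43.9%) and 6219 higher in LP roots (25.0%), and 7716 were called in neither direction. Roots thus held 36.3% of the calls and shoots 63.7%, against 23.8% and 76.2% when the values were left unscaled. The median log2 ratio was -0.61, with quartiles at -2.26 and 1.0. Genes listed at 0 carried much of the shoot excess. Among the genes higher in shoots, 4889 were listed at 0 in roots, while 1635 of those higher in roots were listed at 0 in shoots. Among the 18337 genes above 0 in both libraries, 6037 were higher in shoots (32.9%) and 4584 in roots (25.0%), with a median of -0.21. Where the larger scaled value was 20 TPM or more, the order turned: 3479 of 8758 genes were higher in roots and 2408 in shoots. Scaling raised root values and lowered shoot values before this cut, and the count was not repeated unscaled.

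**Figure D1:**
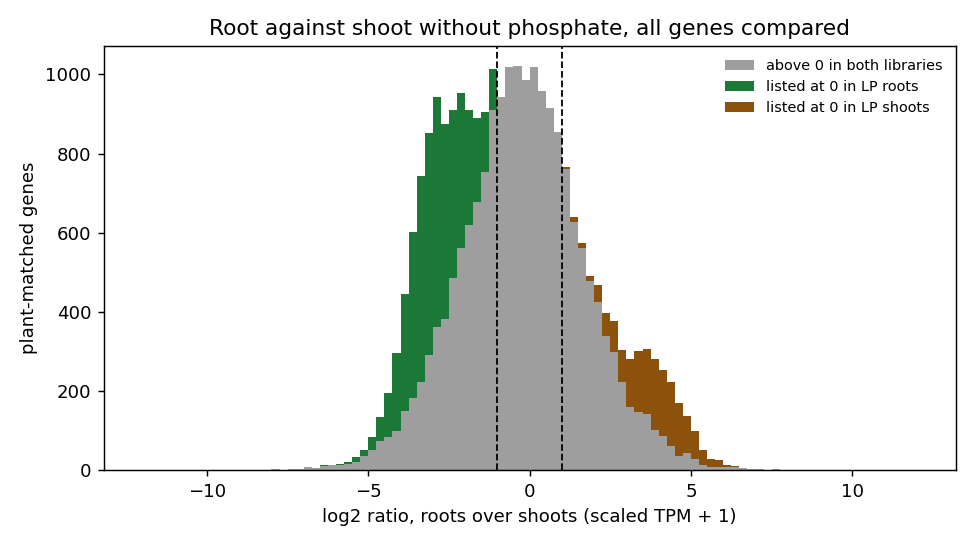
Number of plant-matched genes by log2 ratio of roots over shoots without phosphate, on scaled TPM + 1, with genes listed at 0 in one library coloured and dashed lines at the call size. The 4889 genes listed at 0 in roots widen the left side, and the 1635 listed at 0 in shoots form a shoulder on the right.

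Short contigs were called more often. Under 300 bp, 39.9% of 3592 contigs were root-higher and 52.6% shoot-higher, against 23.8% and 28.0% of 2452 contigs of 2000 bp or more. Of the contigs under 300 bp, 57.5% were listed at 0 in both CK libraries, so a comparison with the CK pair says little for them. Among contigs of at least 400 bp, 41.0% were higher in shoots and 21.6% in roots. A single fragment on a 400 bp contig was worth about 0.089 TPM in LP roots and 0.18 TPM in LP shoots, as read from the steps between low values, so values near these rest on 1 or a few fragments.

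The CK pair called 11737 of 22994 genes higher in shoots (51.0%) and 4802 higher in roots (20.9%). Of the genes higher in LP shoots, 59.0% were also higher in CK shoots and 8.42% were higher in CK roots. Of those higher in LP roots, 32.4% were also higher in CK roots and 20.2% were higher in CK shoots. The shared genes were 54.9% of the CK shoot calls and 42.0% of the CK root calls. At 400 bp or more, 65.7% of LP shoot calls and 39.8% of LP root calls recurred in the same tissue of the CK pair.

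The tissue labels were checked against marker genes. Of 51 shoot marker contigs, 44 were higher in LP shoots and 2 in LP roots, and their summed level was 20601 TPM in shoots and 4104 TPM in roots. A single contig held 3698 TPM of that root sum and is described with the photosynthesis genes. Contigs of the stomatal regulators SPEECHLESS (395 bp) and MUTE (256 bp) were listed at 0 in both LP libraries. The root markers were split, with 15 of 37 contigs higher in LP roots (40.5%) and 20 in LP shoots (54.1%). Over all genes the shares were 25.0% and 43.9%. The root markers had a median log2 ratio of -1.17 on scaled values. Their sums as deposited were 470 TPM in LP roots and 528 TPM in LP shoots, and 980 and 290 TPM in the CK pair. These sums were not rescaled, so their order in the LP pair is not relative to the median root to shoot ratio of 0.574. Some root markers were nevertheless far higher in LP roots. Casparian strip membrane protein 1 (CASP1), which builds the diffusion barrier of the endodermis, stood at 20.0 TPM in LP roots and 0.08 TPM in LP shoots. The nitrate importer NRT2.1 stood at 33.2 TPM in roots and 0.18 TPM in shoots. AIL6, an AP2-type regulator of meristems, stood at 32.1 TPM in roots and 1.93 TPM in shoots. The root markers that were higher in shoots included contigs of PHT1 importers and of SHORT-ROOT (SHR), which patterns the root endodermis: its 1572 bp contig had 3.54 TPM in LP roots and 15.5 TPM in LP shoots, with 48.3 and 21.9 TPM in the CK pair.

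Photosynthesis genes gave the clearest shoot excess. Of 38 contigs of light-harvesting proteins and photosystem subunits, 32 were higher in LP shoots (84.2%) and 2 in LP roots (5.26%). This compares with 43.9% and 25.0% over all genes. The median log2 ratio was -5.10. RuBisCO activase (RCA), which keeps the carbon-fixing enzyme active, had 4472 TPM in LP shoots and 15.4 TPM in LP roots. The antenna protein LHCB4.2 had 2074 TPM in shoots and 3.91 TPM in roots, a log2 ratio of -8.00. The photosystem I subunits PSAN and PSAK had 1001 and 592 TPM in shoots against 3.32 and 1.14 TPM in roots. PSBS, which drives the dissipation of excess light, had 232 TPM in shoots and 0.28 TPM in roots. These 5 genes had the same order in the CK pair, with log2 ratios there between -9.50 and -6.45.

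Pigment synthesis, Calvin cycle and photorespiration genes followed. None of 28 contigs for chlorophyll and carotenoid synthesis was higher in LP roots and 22 were higher in shoots (78.6%), with a median of -2.81. CHLH, the large subunit of magnesium chelatase, had 384 TPM in shoots and 6.18 TPM in roots. Of 25 Calvin cycle and photorespiration contigs, 15 were higher in shoots and 6 in roots. The photorespiratory glycine dehydrogenase GDCSP had 627 TPM in shoots and 12.1 TPM in roots. CP12-1, a small regulator of the Calvin cycle, had 204 TPM in shoots and 0.20 TPM in roots.

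An exception among the antenna genes was a 621 bp contig, TRINITY_DN29016_c3_g1, with 3698 TPM in LP roots and 1612 TPM in LP shoots. In the CK pair it had 187 TPM in roots and 3234 TPM in shoots, so its tissue order was opposite in the 2 media. It merges 11 transcripts, and its names disagree: Swiss-Prot calls it a chlorophyll a-b binding protein, while the other protein match is an uncharacterized protein At2g29880-like. Which of these names the root signal belongs to cannot be told from this table.

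**Figure D2:**
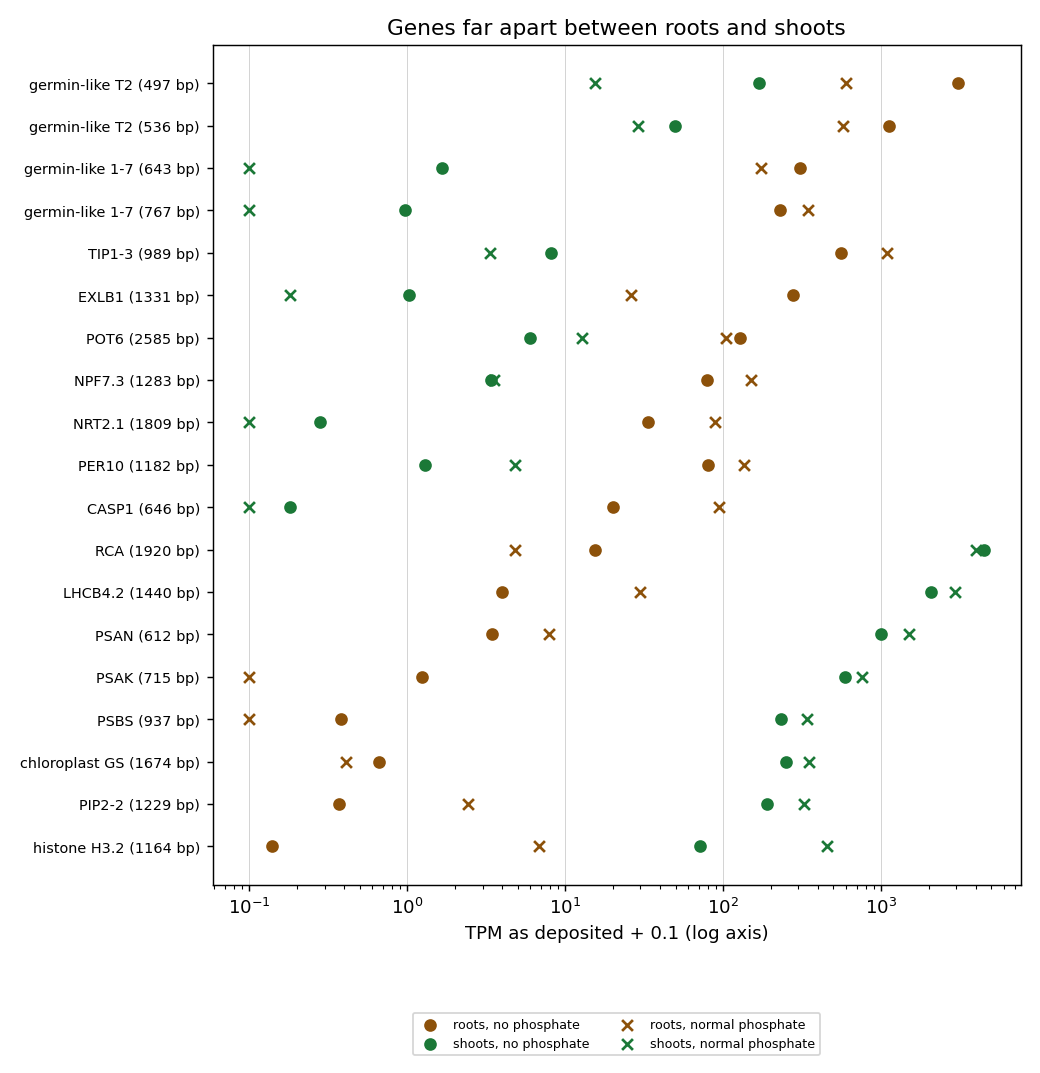
TPM as deposited, plus 0.1, on a log axis for 19 contigs in the 4 libraries, with circles for plants without phosphate and crosses for normal phosphate. In every row both root libraries lie on one side of both shoot libraries, from germin-like proteins and CASP1 above to photosystem genes, chloroplast glutamine synthetase (GS), PIP2-2 and histone H3.2 below.

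Germin-like proteins led the root side. These are small cell wall proteins of the cupin fold, some of which make hydrogen peroxide as superoxide dismutases. Of 30 contigs, 23 were higher in LP roots (76.7%) and 5 in LP shoots (16.7%), against 25.0% and 43.9% over all genes. The median log2 ratio of the list was 4.12. Their summed level was 8762 TPM in LP roots and 403 TPM in LP shoots, against 2697 and 354 TPM in the CK pair. All 11 contigs matched to subfamily T member 2 were higher in LP roots, and 9 of the 11 were also higher in CK roots. The most abundant, of 497 bp, had 3082 TPM in LP roots and 169 TPM in LP shoots, a log2 ratio of 4.98. The next, of 388 bp, had 2458 TPM in roots and 16.0 TPM in shoots. Contigs of subfamily 1 member 7 behaved alike: that of 643 bp had 307 TPM in roots and 1.56 TPM in shoots. Many of these contigs are close relatives, so reads may have been split between them. The list of germin-like proteins was added after its values were seen.

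Other genes at the top of the root side belonged to transport and the cell wall. The vacuolar water channel TIP1-3 had 559 TPM in LP roots and 8.06 TPM in LP shoots, with 1094 and 3.25 TPM in the CK pair. Expansin-like EXLB1, of a family that loosens walls, had 276 TPM in roots and 0.92 TPM in shoots, a log2 ratio of 7.75 against 4.71 in the CK pair. MIEL1, a ubiquitin ligase that targets MYB proteins in *Arabidopsis*, had 3946 TPM in roots and 87.4 TPM in shoots. SMR6, an inhibitor of cyclin-dependent kinases, had 73.7 TPM in roots and 0.32 TPM in shoots. Of the 10 highest ratios, 3 belonged to contigs with a log2 ratio of 1.09 or less in the CK pair. PMA1, named as a proton pump but with a pentatricopeptide repeat protein as its other match, had 259 TPM in LP roots and 1.05 TPM in CK roots. HIS1, named for histidine synthesis, had a log2 ratio of 6.70 in the LP pair and -0.35 in the CK pair. The AAA-ATPase At3g28580 had 6.35 and 1.09.

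At the other end, 3 contigs named as regulators lay among the photosynthesis genes. The highest, named MYB44, had 9250 TPM in LP shoots and 39.9 TPM in LP roots. One named ATHB-51 had 2782 TPM in shoots and 5.56 TPM in roots, and one named LECRK61, a lectin receptor kinase, had 1603 and 4.02 TPM. These contigs merge 7, 10 and 13 transcripts, so the value need not belong to the named protein alone.

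Of 22 aquaporin contigs, 6 were higher in LP roots (27.3%) and 9 in LP shoots (40.9%), near the shares over all genes of 25.0% and 43.9%. PIP2-1, in the plasma membrane, had 1083 TPM in roots and 412 TPM in shoots. A 1229 bp contig of PIP2-2 had 0.27 TPM in roots and 189 TPM in shoots, but with all PIP2-2 contigs added up the log2 ratio was -0.30 and no longer called.

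Of 41 phosphate transport contigs, 15 were higher in LP roots and 15 in LP shoots, 36.6% each against 25.0% and 43.9% over all genes, and the median was 0.06. The exporters of the PHO1 type were split, with 4 of 10 contigs higher in LP roots and 3 in LP shoots, and a median log2 ratio of 0.51. The exporter contigs named here were among those higher in LP roots. PHO1, which loads the xylem, had 95.7 TPM in LP roots and 38.9 TPM in LP shoots on its 1526 bp contig. Its 473 bp contig had 43.4 TPM in roots and was listed at 0 in shoots. PHO1-H10, a homologue, had 35.4 TPM in roots and 14.3 TPM in shoots. Both PHO1 contigs were higher in roots in the CK pair as well.

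PHT1 importers are the entry step for soil phosphate. Of 13 PHT1 contigs, 5 were higher in LP roots (38.5%) and 6 in LP shoots (46.2%), against 25.0% and 43.9% over all genes. The CK pair had 10 of 13 on the root side and 2 on the shoot side, against 20.9% and 51.0% over all genes. Of the 6 higher in LP shoots, 5 were higher in CK roots. PHT1-1 had 2.98 TPM in LP roots and 60.1 TPM in LP shoots, and 27.9 and 8.07 TPM in the CK pair. PHT1-4, on its 2076 bp contig, had 12.9 TPM in LP roots and 52.4 TPM in LP shoots, and 116 and 19.3 TPM in the CK pair. PHT1-3, on its 712 bp contig, had 19.0 and 88.9 TPM without phosphate and 72.8 and 17.8 TPM with it. PHT1-5, on 759 bp, kept its root excess, with 12 TPM in LP roots and 0.79 TPM in LP shoots. Summed over PHT1 contigs, the level was 127 TPM in LP roots and 276 TPM in LP shoots, against 658 and 94.1 TPM in the CK pair. Of the 13 contigs, 7 were of 400 bp or more, and several came from one assembly cluster, so reads of related importers may be split between them. When contigs of one name were added up, the log2 ratio was 0.35 for PHT1-3 and 0.26 for PHT1-4 in the LP pair, no longer to the shoot side, while PHT1-1 stayed on it.

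Other transporters varied. The chloroplast carrier PHT2-1 had 4.94 TPM in LP roots and 29.7 TPM in LP shoots. The mitochondrial carrier MPT3 had 24.5 and 93.0 TPM on its 1261 bp contig, a log2 ratio of -1.10 that was -0.36 with all MPT3 contigs added up. A contig matched to PHO84, a high-affinity importer known from yeast, had 67.7 TPM in LP roots and 20.0 TPM in LP shoots, and 4.22 and 24.2 TPM in the CK pair.

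**Figure D3:**
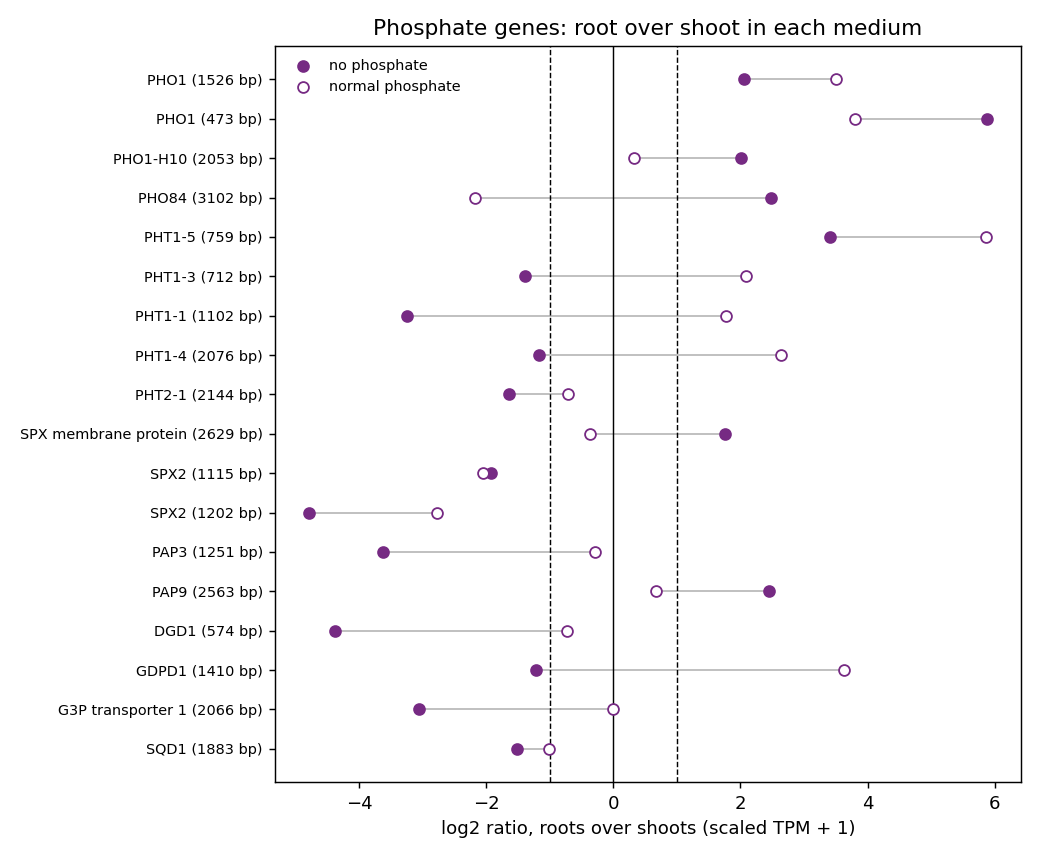
Log2 ratio of roots over shoots, on scaled TPM + 1, for 18 contigs of phosphate transport, sensing, acid phosphatases and lipid exchange, with filled circles without phosphate and open circles with normal phosphate. PHT1-1, PHT1-3, PHT1-4 and GDPD1 lie right of the upper dashed line with phosphate and left of the lower one without, and PHO84 does the reverse.

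Of the phosphate sensors of the SPX group, 3 of 7 contigs were higher in LP shoots and 2 in LP roots, shares close to those of all genes. SPX2, an inhibitor of PHR regulators, had 118 TPM in LP shoots and 17.3 TPM in LP roots on 1115 bp. A second SPX2 contig of 1202 bp had 57.0 TPM in shoots and 0.46 TPM in roots. The SPX membrane protein At4g22990 had 76.6 TPM in roots and 38.7 TPM in shoots on 2629 bp, a scaled log2 ratio of 1.75 that was 0.97 unscaled and below the call size. Of 31 regulator contigs, 9 were higher in roots (29%) and 12 in shoots (38.7%), near the shares over all genes. PHL1, a PHR1-like regulator, had 74.2 TPM in roots and 62.8 TPM in shoots, a scaled log2 ratio of 1.02 that was 0.24 unscaled. UBC24, the PHO2 enzyme that removes PHO1 and PHT1 proteins in *Arabidopsis*, had 40.6 and 63.5 TPM on 2352 bp, a log2 ratio of 0.15. LPR1, an oxidase of the root tip response in *Arabidopsis*, had 33.1 TPM in shoots and 0.72 TPM in roots.

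Purple acid phosphatases, which free phosphate from organic esters, lay to the shoot side. Of 44 contigs, 28 were higher in LP shoots (63.6%) and 7 in LP roots (15.9%), against 43.9% and 25.0% over all genes. The median was -2.24. PAP3 had 105 TPM in shoots and 4.21 TPM in roots on 1251 bp, while the CK pair had 6.74 and 4.93 TPM. PAP26, a vacuolar and secreted enzyme in *Arabidopsis*, had 78.1 TPM in shoots and 4.39 TPM in roots on 632 bp. PAP9 was an exception with 71.1 TPM in roots and 21.5 TPM in shoots. PAP18 on 734 bp, at 68.4 TPM in roots and 124 TPM in shoots, had a log2 ratio of -0.06.

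Lipid exchange genes also lay mainly to the shoot side, with 27 of 47 contigs higher in LP shoots (57.4%) and 5 in LP roots (10.6%). Over all genes the shares were 43.9% and 25.0%. Their median was -1.35, and 13 of the 47 were listed at 0 in LP roots. At 400 bp or more the lean was smaller, with 13 of 28 higher in shoots and 3 in roots. Over all genes of that length, 41.0% were higher in shoots and 21.6% in roots. DGD1, the main galactolipid synthase of its kind, had 159 TPM in shoots and 3.68 TPM in roots on 574 bp, and 113 and 14.8 TPM on 2450 bp. The first step of sulfolipid synthesis, SQD1, had 70.7 TPM in shoots and 13.7 TPM in roots. Its partner SQD2 had 43.7 and 29.6 TPM, a log2 ratio of 0.23. The glycerol-3-phosphate transporter At3g47420 had 93.3 TPM in shoots and 5.80 TPM in roots, while the CK pair had 25.2 and 23.1 TPM. GDPD1, which breaks down glycerophosphodiesters, had 89.3 TPM in LP shoots and 21.8 TPM in LP roots, and 2.28 and 37.0 TPM in the CK pair. Non-specific phospholipase NPC1 went the other way on 873 bp, with 247 TPM in roots and 167 TPM in shoots, a scaled log2 ratio of 1.36 that was 0.56 unscaled.

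**Figure D4:**
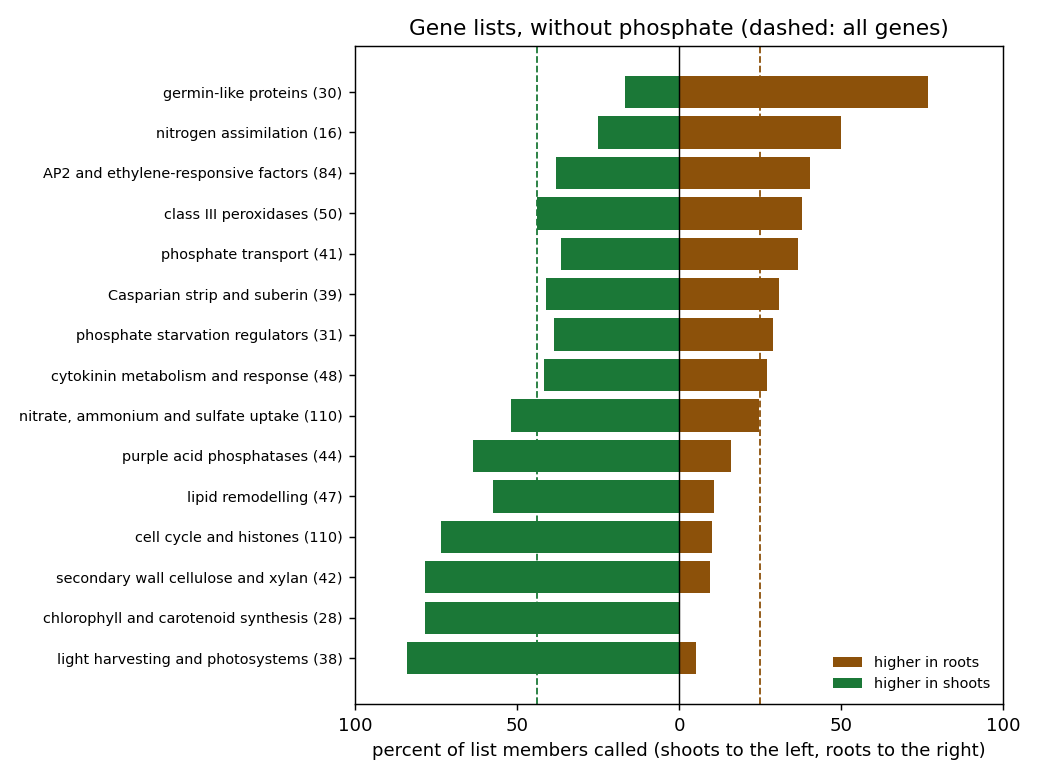
Percent of the members of 15 gene lists called higher in LP shoots (left) and LP roots (right), with the number of members compared in brackets and dashed lines at the shares over all genes, 43.9% and 25.0%. Germin-like proteins reach farthest to the right, and light-harvesting, chlorophyll, secondary wall and cell cycle genes farthest to the left.

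Of 110 contigs for nitrate, ammonium and sulfate uptake, 27 were higher in LP roots (24.5%) and 57 in LP shoots (51.8%), against 25.0% and 43.9% over all genes. NPF7.3, which loads nitrate into the xylem in *Arabidopsis*, had 79.2 TPM in LP roots and 3.31 TPM in LP shoots. NRT3.1, the partner protein that NRT2 importers need, had 84.1 TPM in LP roots and 380 TPM in LP shoots, but 523 and 129 TPM in the CK pair. AMT3-3, an ammonium transporter, had 9.86 TPM in roots and 56.0 TPM in shoots. For potassium, iron and zinc, 28 of 94 contigs were higher in roots (29.8%) and 43 in shoots (45.7%), also near those shares. The potassium transporter POT6 had 128 TPM in roots and 5.85 TPM in shoots.

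Of 16 nitrogen assimilation contigs, 8 were higher in LP roots (50.0%) and 4 in LP shoots (25.0%), against 25.0% and 43.9% over all genes. The CK pair had 2 and 7 of 14, where the shares over all genes were 20.9% and 51.0%. The median of this list in the LP pair was 0.95, but 0.20 unscaled and -0.24 for genes meeting both match criteria. Its summed level was 466 TPM in LP roots and 1032 TPM in LP shoots. Asparagine synthetase AS1, which makes a transport form of nitrogen, had 118 TPM in roots and 84.5 TPM in shoots, a scaled log2 ratio of 1.26 that was 0.47 unscaled. The chloroplast glutamine synthetase had 0.56 TPM in roots and 249 TPM in shoots. The cytosolic form GS1-1 had 73.0 and 409 TPM.

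In the root barrier list, 12 of 39 contigs were higher in LP roots (30.8%) and 16 in LP shoots (41.0%). These lay near the shares over all genes of 25.0% and 43.9%. CASP-like protein 1D1 had 806 TPM in roots and 47.7 TPM in shoots. Class III peroxidases, which cross-link walls, had 19 of 50 contigs higher in roots (38.0%) and 22 in shoots (44.0%). Their shoot share was near that of all genes. Peroxidase 10 had 80.0 TPM in roots and 1.20 TPM in shoots. Peroxidase 12 had 60.5 TPM in roots and 1.33 TPM in shoots on 1070 bp, but -0.35 was the log2 ratio of all contigs of that name added up. Peroxidase 42 had 29.5 TPM in roots and 355 TPM in shoots. CYP711A1, the cytochrome MAX1 of strigolactone synthesis, had 114 TPM in roots and 25.8 TPM in shoots. D27, an earlier enzyme of that route, had 0.09 TPM in roots and 37.8 TPM in shoots on 1129 bp.

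Genes of the secondary wall and of cell division lay to the shoot side. Of 42 contigs for secondary wall cellulose and xylan, 33 were higher in LP shoots (78.6%) and 4 in LP roots (9.52%), with a median of -2.79. Over all genes the shares were 43.9% and 25.0%. Of these 42 contigs, 20 were listed at 0 in LP roots. The cellulose synthase CESA4 had 39.6 TPM in shoots and 1.72 TPM in roots. The wall glycoprotein FLA12 had 79.9 TPM in LP shoots and 3.14 TPM in LP roots, while the CK pair had 73.7 and 62.7 TPM. Of 110 cell cycle and histone contigs, 81 were higher in LP shoots (73.6%) and 11 in LP roots (10.0%), and 50 were listed at 0 in LP roots. Histone H3.2, made during DNA replication, had 71.0 TPM in shoots and 0.04 TPM in roots on 1164 bp, and all 5 of its contigs were higher in shoots in both media.

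Of 48 cytokinin contigs, 13 were higher in LP roots (27.1%) and 20 in LP shoots (41.7%), near the shares over all genes. The cytokinin receptor AHK3 had 179 TPM in roots and 19.7 TPM in shoots. The type B response regulators, which switch on cytokinin targets, were higher in LP roots in 9 of 10 contigs, against 25.0% of all genes. The CK pair had 4 of 9 on the root side and 0 on the shoot side. ARR11 had 79.1 TPM in LP roots and 15 TPM in LP shoots. The type A regulators, which dampen the response, were higher in LP shoots in 5 of 6 contigs, against 43.9% of all genes. The CK pair had 5 of 7 on the shoot side and 2 on the root side. ARR6 had 49.5 TPM in LP shoots and 2.98 TPM in LP roots. The division into types was made after the values were seen. The auxin-responsive SAUR72 had 332 TPM in roots and 15 TPM in shoots.

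In sugar metabolism, some invertase contigs had a root excess in the LP pair that the CK pair lacked. The neutral invertase CINV2, which splits sucrose in the cytosol, had 590 TPM in LP roots and 57.4 TPM in LP shoots, and 26.4 and 49.6 TPM in the CK pair. The mitochondrial invertase INVC had 112 TPM in LP roots and 13.3 TPM in LP shoots, and 6.89 and 6.75 TPM in the CK pair. Of 12 alkaline and neutral invertase contigs, 3 were higher in LP roots (25.0%) and 7 in LP shoots (58.3%). Over all 60 sugar contigs, 13 were higher in LP roots (21.7%) and 37 in LP shoots (61.7%). The shares over all genes were 25.0% and 43.9%.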

How the data were processed

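Libraries of poly(A) RNA were read from both ends, per the labels' protocols. The submitters' processing notes name cutadapt 1.9 and FastQC; what assembled, aligned and quantified the reads is not given in the sources used here. Values are TPM for each assembled gene, as deposited and per the file headers. Because TPM share a fixed total, RNA of other organisms lowers the values of birch genes. TPM steps at equal length gave the value of 1 fragment (tolerance 0.01 TPM); other depth is unknown. The LP and CK pairs were each rescaled by a median ratio and genes called by size; with 1 library per group no test was possible. Python 3, numpy and pandas were used, and the steps were tested on simulated data. The genes and the 41 gene lists, matched by protein name, and 2 marker lists were chosen with earlier results of these data known. Named genes were the 10 highest and 10 lowest ratios at 20 TPM and 400 bp or more with a Swiss-Prot name, and per list the 3 most abundant higher, 3 most abundant lower and the most abundant uncalled contig; in the 5 phosphate lists all of 20 TPM or more qualified, and those that fit are given. All marker and germin-like contigs could be named. Alternatives were another pseudocount, scaling, filter, length, size rule and gene set, and summing by name. One result is not reported here.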

Additional observations from a re-analysis of the deposited data

Results flagged for a closer look

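Of the contigs named here, 10 were called in opposite directions in the 2 media, and the difference was not tested, since each ratio rests on 1 library per tissue. Opposite calls were also common over all genes. There, 20.2% of the 6219 LP root calls were CK shoot calls, and 8.42% of the 10926 LP shoot calls were CK root calls. Higher in LP roots but in CK shoots were the contig named as a chlorophyll a-b binding protein with conflicting names (log2 ratio 2.00 without phosphate and -3.99 with it), AIL1 (1.72, or 0.92 unscaled and not called, and -2.44), the germin-like GLP2A (5.85 and -2.61) and the PHO84 match (2.48 and -2.17). Higher in LP shoots but in CK roots were PHT1-1 (-3.24 and 1.78), PHT1-3 (-1.39 and 2.09), PHT1-4 (-1.17 and 2.64), GDPD1 (-1.21 and 3.63), NRT3.1 (-1.37 and 2.12) and SHR (-1.17 and 1.22).

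Some classes of genes outside the plant match took a larger share of TPM without phosphate. Genes with no protein match held 43.3% of TPM in LP roots and 29% in CK roots, and 18.3% in LP shoots and 15.7% in CK shoots. Genes matched to yeasts held 3.17% in LP roots and 1.44% in CK roots, and 1.5% in LP shoots and 0.483% in CK shoots. Genes matched to animals held 1.84% in LP shoots and 0.635% in CK shoots, but 1.36% in LP roots and 1.57% in CK roots, the opposite order. The part of these sequences in the root and shoot differences was not tested.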

How the results depend on the processing

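The shoot count exceeded the root count under the 10 alternatives listed for the LP pair. Among genes of 20 TPM or more after scaling, however, roots had 3479 calls and shoots 2408, and this count was not repeated unscaled. The counts in roots and shoots were 2200 and 4296 for genes meeting both match criteria, 3157 and 5389 after adding up contigs of one name, and 3748 and 7205 at a log2 size of 2; these alternatives compare fewer genes or call fewer by construction. Contigs of 400 bp or more gave 4035 in roots, and genes above 0 in both libraries 6037 in shoots. The remaining 12 of 20 counts stayed within 1.5 times the value reported.

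Of 387 list medians, 336 kept their side of a log2 size of 1, and the cause of the other changes was not tested. Unscaled, the median passed -1 for light receptors and clock (-1.60), potassium, iron and zinc (-1.35), organic acids (-1.55), strigolactone and symbiosis (-1.21), cytokinin (-1.34), auxin (-1.28), gibberellin and abscisic acid (-1.38), ribosomal proteins (-1.64), heat shock proteins (-1.28), WRKY (-1.02) and NAC (-1.08). Scaling over all genes did so for light receptors (-1.14), organic acids (-1.10) and ribosomal proteins (-1.16). With both criteria required, light receptors gave -2.07, lipid exchange -0.90, nitrate, ammonium and sulfate -0.96, potassium, iron and zinc -1.25, aquaporins 1.77, strigolactone -1.15, flavonoids -0.30 and chitinases -0.54. Adding up contigs gave light receptors -1.05, root development -0.50, SPX -1.28, nitrate -0.63, nitrogen assimilation 1.31, lignin -0.82, chitinases -0.63 and root markers -0.26. Without a filter, nitrate had -0.93, expansins -1.0, chitinases -0.66 and root markers -1.0. At 5 TPM, nitrate had -0.85, nitrogen assimilation 1.26, MYB -0.77, AP2 1.01 and root markers -1.0. Above 0 in both libraries, light receptors had -1.27, lipid exchange -0.68, nitrate -0.33, chitinases -0.64, MYB -0.53 and helix-loop-helix -0.87, while expansins (0.06) and root markers (0.79) turned from below -1 to above 0. Smaller medians also changed sign there, to 0.39 for potassium, iron and zinc, 0.24 for gibberellin and abscisic acid, 0.19 for auxin, 0.75 for AP2, 0.29 for the Casparian strip list and 0.13 for GRAS regulators. At 400 bp or more, light receptors had -1.63, lipid exchange -0.85, nitrate -0.85 and root markers -0.32.

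Of 387 values of named contigs, 372 kept their side. Adding up contigs of one name reversed PHT1-3 (0.35), PHT1-4 (0.26), Peroxidase 12 (-0.35) and an unnamed chlorophyll a-b binding contig (1.54), whose sum includes other contigs. No paired analysis was possible because each group is 1 library and the results come from no test. Values near 0.27 TPM in LP roots or 0.53 TPM in LP shoots on a 400 bp contig rest on 3 fragments, and counting error is the only error that can be stated. Variation between plants is unknown.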

Other observations

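Counts for families of transcription factors are given beside the shares over all genes, 25.0% higher in LP roots and 43.9% in LP shoots; differences between families were not tested. Of 84 AP2 and ethylene-responsive contigs, 34 were higher in LP roots (40.5%) and 32 in LP shoots (38.1%). RAP2-4 had 1121 TPM in LP roots and 278 TPM in LP shoots on 1984 bp. NAC factors had 22 of 74 contigs higher in roots (29.7%) and 31 in shoots (41.9%), near those shares. NAC100 had 129 TPM in roots and 6.48 TPM in shoots. WRKY factors, also near them, had 26 of 87 higher in roots (29.9%) and 34 in shoots (39.1%). The contig named WRKY49, with 693 TPM in roots and 17.4 TPM in shoots, merges 26 transcripts. MYB factors had 16 of 77 higher in roots (20.8%) and 47 in shoots (61.0%), and basic helix-loop-helix factors 14 of 80 (17.5%) and 42 (52.5%). These family lists were added after values had been seen.

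Of 58 gibberellin and abscisic acid contigs, 15 were higher in LP roots (25.9%) and 26 in LP shoots (44.8%), close to the shares over all genes. The abscisic acid receptor PYL8 had 552 TPM in LP roots and 114 TPM in LP shoots. HSP21.7, a small heat shock protein, had 1474 and 129 TPM, and the heat stress factor HSFA7A had 420 and 15.8 TPM. In the CK pair these 3 contigs were also higher in roots, with log2 ratios of 2.06, 1.30 and 3.06. Heat shock proteins as a list had 26 of 117 contigs higher in LP roots (22.2%) and 49 in LP shoots (41.9%), near the shares over all genes.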
